A study of Homo sapiens with 8 samples.

Results

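The genes AARS, GARS, WARS, SARS, MARS, NARS, EPRS, YARS, IARS and TARS encode cytosolic aminoacyl-tRNA synthetases, the enzymes that join amino acids to their transfer RNAs. The 10 genes were chosen by name, and a deposited ATF4 peak was assigned to a gene when any base of it lay within 5 kb of the gene's hg19 start site. Of the 132657 regions obtained by merging the 8 peak lists of the study, 15 lay at these genes. Each gene had 1 main site that was listed in all 8 libraries, and the 5 other regions were weaker or were listed in fewer libraries. The lists come from chromatin immunoprecipitation with a rabbit monoclonal antibody against ATF4, followed by sequencing, in Nalm6 and SUPB15, 2 established cell lines of acute lymphoblastic leukaemia. Untreated Nalm6, Nalm6 given L-asparaginase at 1 IU/ml for 2 h, untreated SUPB15, and SUPB15 given the same dose for the same time formed 4 groups of 2 libraries each. The labels name no genetic change or other agent in any group, and no input or control-antibody library was analysed here. The design text speaks of independent experiments for Nalm6. Nothing says that the SUPB15 libraries came from separate cultures, so p-values measure only the spread between these libraries, which may be technical.

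Aminoacyl-tRNA synthetases supply the charged tRNAs on which protein synthesis depends. When amino acids run short, uncharged tRNA activates the kinase GCN2, which phosphorylates the initiation factor eIF2 and allows the mRNA of ATF4 to be translated. ATF4 is a basic leucine zipper transcription factor that binds DNA with partners such as C/EBP proteins, often at composite C/EBP-ATF response elements, and many cytosolic synthetase genes are known ATF4 targets. L-asparaginase is a leukaemia drug that breaks down asparagine and, more slowly, glutamine.

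The promoters of these genes were searched for short motifs because promoter sequence is not taken from the peak lists. The genes themselves were chosen with earlier results of these data known. The counts below therefore describe this set and are no separate support for binding. In the RefSeq promoters of GRCh38.p14, each 300 bases long with 250 before and 50 after the start, 9 of the 10 genes matched an entry by symbol (AARS1, GARS1 and so on). YARS1 was not matched. TGATGNAA, a form of the C/EBP-ATF response element searched on both strands, was found at 6 of the 9 genes, compared with 4.46% of all 27305 genes of the table. The 30-base stretches centred on the matches are shown 5′ to 3′ in the direction of the motif, with the 8 matched bases in capitals, because they carry the sequence that these members share.
AARS1: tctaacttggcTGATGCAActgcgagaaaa
GARS1: ggctcggagcaTGATGAAAtcgccgcgtaa
MARS1: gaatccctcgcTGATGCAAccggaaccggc
NARS1: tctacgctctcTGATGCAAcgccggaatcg
IARS1: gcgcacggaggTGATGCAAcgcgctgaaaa
TARS1: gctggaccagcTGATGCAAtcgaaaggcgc

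In 5 of the 6 genes the match was TGATGCAA, and in GARS1 it was TGATGAAA. The match lay on the strand of the gene only in NARS1, and on the opposite strand in the other 5. Counted from the first transcribed base as 1, it lay at −187 to −180 in AARS1, −33 to −26 in GARS1, −13 to −6 in IARS1, −4 to 4 in MARS1, 3 to 10 in TARS1 and 15 to 22 in NARS1. Thus 5 of the 6 matches lay close to the start, and the AARS1 match lay farther upstream. The GARS1 match came from promoter entry 2 of the gene and the others from entry 1. These positions are counted from RefSeq starts on GRCh38.p14 and cannot be set against the summit distances from the hg19 starts below. The related form TGANGCAA was found at 5 of 9 genes, compared with 4.01% of all genes. These were the 5 genes whose match read TGATGCAA, which fits both forms. The cAMP response element TGACGTCA was found at 0 of 9 genes, compared with 2.25% of all genes. WARS1, SARS1 and EPRS1 held none of these 3 letter strings in these windows.

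The AARS1 promoter is shown at greater length because its match lies farther before the start than the other matches. The 100 bases from 220 to 121 before the start, chr16:70289627-70289726 on the minus strand of GRCh38.p14, read in the direction of the gene with the reverse complement of the motif in capitals.
AARS1: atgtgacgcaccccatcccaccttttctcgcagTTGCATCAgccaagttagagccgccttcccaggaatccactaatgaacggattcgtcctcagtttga

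The gene S100PBP starts within 5 kb of YARS1 on the opposite strand. Its promoter was searched as that of a neighbour, and it is shown after the match was seen, because it lies at the 5′ end of the YARS1 gene, which itself had no entry. The match lies 94 to 87 bases before the S100PBP start of promoter entry 2 and within YARS1.
S100PBP: ccgagcccagcTGATGCAAcctggctggac

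Other neighbours that start within 5 kb were DDX19B at AARS, WDR25 at WARS and TARS1-DT, a long non-coding RNA, at TARS. None of their promoters held a motif. A peak between divergent genes cannot be assigned to 1 of them from these lists.

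The same search was made in fixed lists of other synthetase genes. Among the other cytosolic synthetases, 1 of the 7 genes with an entry held TGATGNAA (CARS1, cysteinyl-tRNA synthetase), and among 14 mitochondrial synthetases 1 did (YARS2, which charges mitochondrial tyrosine tRNA). None of the 3 scaffold genes of the multisynthetase complex (AIMP1, AIMP2, EEF1E1) held it, and AIMP2 held TGACGTCA. A match is a description of letters and not of binding. Peaks at these other genes were not analysed here, as no annotation of hg19 was used.

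The Nalm6 lists held 34825 to 48984 peaks. Untreated SUPB15 gave 9575 and 9586 peaks, and treated SUPB15 gave 88302 in replicate 1 and 41213 in replicate 2. The lists give no read totals. The whole-number pileup of fragments at each summit and its local background were solved from the deposited fold enrichment and −log10 p. In what follows the level of a site is its summit pileup plus 1, divided by the genome background, which is the lowest local background of the list (2.21 to 4.19 fragments). A level averages over the cells of a library, so more bound cells and more binding per cell cannot be told apart. The highest pileup in any list was exactly 400, and the Nalm6 asparaginase lists held 4 and 9 peaks at that value. Such a ceiling is what 200-base fragments with 1 kept read per position and strand would give. Whether this is its origin was not tested, and the labels do not state the options of the peak caller.

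All 10 genes had a site listed in all 4 Nalm6 libraries, a class that held 44.1% of the merged Nalm6 regions. All 10 also had a site listed in all 4 SUPB15 libraries, compared with 4.63% of the SUPB15 regions, and 2.87% of all merged regions were listed in all 8 libraries. No gene had a site gained with asparaginase, that is, listed in both asparaginase libraries of a line and in neither untreated one. That class made up 12.3% of the merged regions in Nalm6 and 16.7% in SUPB15. Nor did any gene have a site listed only in the untreated libraries (1.21% of regions in Nalm6 and 0.0272% in SUPB15).

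Among the 3812 regions listed in all 8 libraries, the main site of YARS had the highest mean log2 level, 6.92. IARS stood at rank 13, GARS at 14, TARS at 19 and MARS at 34. The remaining sites were AARS at rank 67, SARS at 77, EPRS at 100, NARS at 113 and WARS at 122. The median log2 level was 6.45 over the 10 sites and 4.08 over all 3812 regions. Over the 8 libraries the summits of a main site spanned a median of 27.5 bases (14 to 105), compared with 160 bases over all regions (quartiles 72 and 412). The part of peak strength in this difference was not tested.

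Within the single lists, the fold enrichment of each gene's strongest peak ranged from 8.02 (GARS, Nalm6 asparaginase replicate 2) to 20.7 (IARS, SUPB15 asparaginase replicate 2). These enrichments and the p values are the authors' own. By fold enrichment the 10 strongest peaks stood at a median of the top 0.739% and 1.19% of the untreated Nalm6 lists and of the top 1.12% and 0.866% of the untreated SUPB15 lists. In the asparaginase lists the median place was the top 3.82% and 5.42% in Nalm6 and the top 0.809% and 1.05% in SUPB15. None of the 10 stood in the top 1% of a Nalm6 asparaginase list, and GARS stood as low as the top 15.4%. By −log10 p the same peaks stood higher, at a median of the top 0.0732% and 0.0883% in untreated Nalm6 and of the top 0.428% and 0.621% in untreated SUPB15. YARS had the highest −log10 p of the whole list in 3 SUPB15 libraries, both untreated ones and asparaginase replicate 2. Its −log10 p there was 299.8, 307 and 317. Lists differ in length, and ranks in different lists show no change.

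**Figure D1:**
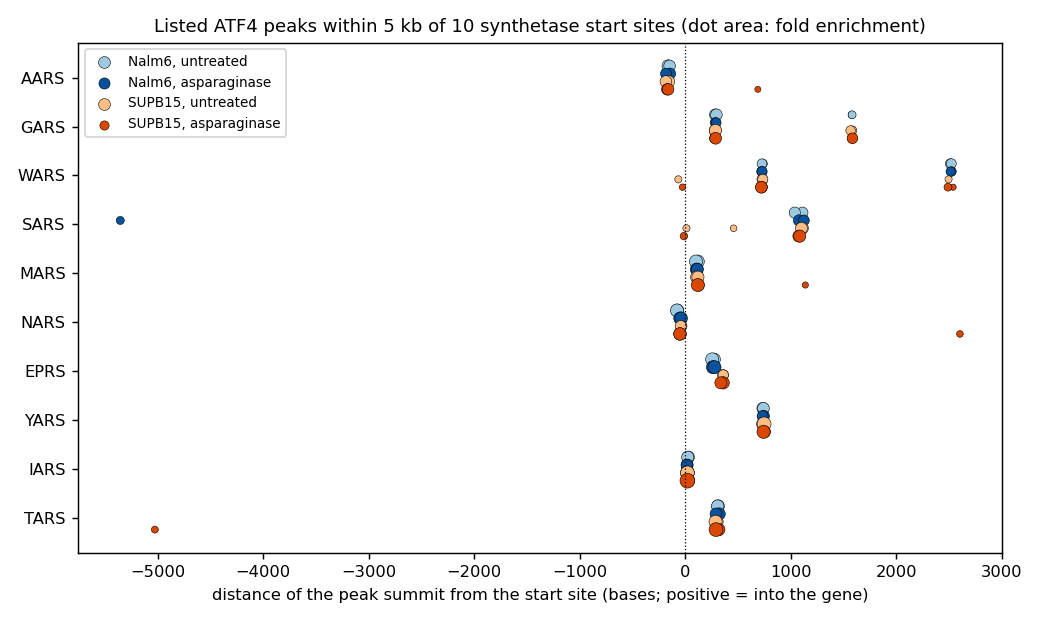
Distance of every listed peak summit from the start site of its gene (x axis, bases, positive into the gene), with 1 row of dots per group and dot area in proportion to fold enrichment. The summits of each main site fall together in all 8 libraries, at distances that differ from gene to gene, and GARS and WARS have a second site inside the gene.

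EPRS, IARS and MARS encode synthetases that belong to the multisynthetase complex. EPRS encodes a bifunctional enzyme that charges glutamate and proline tRNAs. Its main site, chr1:220219144-220220284 (hg19), had summits 256 to 278 bases inside the gene in Nalm6 and 338 to 361 bases inside in SUPB15. The summits of the 2 lines did not overlap. EPRS had the widest summit span of the 10 main sites, 105 bases, while the median span over all 3812 regions was 160 bases. The share of all regions whose summits lie apart between the lines was not counted. The start sites of EPRS, IARS, YARS and NARS are rounded positions in the rule, so their distances are approximate, which does not touch the difference between the lines. Whether a summit lies in an exon or an intron was not assigned. The level of EPRS was 70.7 and 84.6 in untreated Nalm6 (replicates 1 and 2) and 137 and 144 with asparaginase. In SUPB15 it was 36.3 and 31.03 untreated and 84.2 and 64.2 with asparaginase. In both lines the treated libraries lay above the untreated ones. Its fold enrichment ranged from 9.35 to 15.8 and stood in the top 0.312% to 3.80% of the lists.

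IARS, isoleucyl-tRNA synthetase, had its main site at chr9:95055318-95056666, with summits 15 to 30 bases from the start. Its level was 115 and 126 in untreated Nalm6 and 174 and 170.3 with asparaginase. The SUPB15 levels were 67.9 and 58.2 untreated and 93.1 and 84.8 with asparaginase. The motif match of IARS1 lies beside its RefSeq start, and summits and matches could not be placed on 1 scale because they are on different builds. Its fold enrichment ranged from 11.8 to 20.7, and in untreated SUPB15 it ranked 8th and 18th of the list.

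MARS, methionyl-tRNA synthetase, provides the methionine tRNA used for initiation as well as elongation. Its main site was chr12:57881384-57882608, with summits 102 to 123 bases inside the gene. The level of MARS was 110.1 and 124 in untreated Nalm6 and 177 and 167 with asparaginase. SUPB15 gave 54.9 and 43.9 untreated and 86.4 and 77.4 with asparaginase. Its fold enrichment varied least among the 10 genes, from 13.4 to 15.9. A second small peak, 1139 bases inside the gene, was listed in SUPB15 asparaginase replicate 1 alone.

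YARS and WARS encode the closely related synthetases for tyrosine and tryptophan, and WARS is also known as an interferon-induced gene. YARS had its main site at chr1:33282246-33283978, with summits 734 to 753 bases inside the gene from the start in the rule. It had the highest mean level in all 4 groups. Its level was 133 and 143 in untreated Nalm6 and 181 and 172 with asparaginase, and in SUPB15 it was 91.1 and 90.02 untreated and 95.7 and 98.03 with asparaginase. Its summit pileups of 393, 399, 399 and 400 in Nalm6 lay at or within 7 fragments of the highest pileup, in untreated and treated cells alike. In SUPB15 the pileups were 371 and 350 untreated and 400 and 384 with asparaginase. In a list where its pileup is at the highest value, a larger difference between libraries would not appear in these values.

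WARS had 2 strong sites. The main site, chr14:100841568-100842892, had summits 722 to 736 bases inside the gene. Its level was 45.4 and 61.3 in untreated Nalm6 and 153 and 159.6 with asparaginase. In SUPB15 it was 31.9 and 28.7 untreated and 79.9 and 64.9 with asparaginase. The untreated and treated libraries were well apart in both lines, and WARS had the lowest untreated level of the 10 genes in Nalm6.

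The second WARS site, chr14:100839791-100840491, had summits 2491 to 2540 bases inside the gene and was listed in 7 libraries, all but untreated SUPB15 replicate 2. In untreated Nalm6 it was the stronger of the 2 sites by fold enrichment (8.37 and 8.46, compared with 7.11 and 7.98 at the main site). With asparaginase the main site was the stronger (8.59 and 8.85, compared with 7.46 and 7.20). In SUPB15 the second site was weak where listed, with fold enrichments of 3.59, 2.33 and 4.62. In that line the main site gave 8.97 to 12.6.

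AARS, GARS, SARS, TARS and NARS encode synthetases for alanine, glycine, serine, threonine and asparagine. AARS was the only gene of the 10 with all summits more than 100 bases upstream of its start, at 144 to 183 bases upstream. Its main site was chr16:70322583-70324066. The level of AARS was 112 and 123 in untreated Nalm6 and 152 and 155 with asparaginase. The values in SUPB15 were 44.3 and 38.7 untreated and 65.6 and 47.6 with asparaginase. The treated libraries lay above the untreated ones, but in SUPB15 the gap between 47.6 and 44.3 was smaller than the spread of the treated pair. A small peak 689 bases inside the gene was listed in SUPB15 asparaginase replicate 1 alone.

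GARS, whose product charges glycine tRNAs in the cytosol and in mitochondria, had 2 summits inside the gene. The first lay 281 to 296 bases from the start and the second 1568 to 1586 bases from it. In untreated Nalm6 they were separate peaks with fold enrichments of 12.4 and 3.83 in replicate 1 and of 12.2 and 4.68 in replicate 2. With asparaginase each Nalm6 list held a single peak, 2029 and 2049 bases wide, across both positions, with its summit at the first. In SUPB15 both peaks were listed in all 4 libraries. The merged region was chr7:30633996-30636062.

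At its main summit GARS had levels of 109 and 125 in untreated Nalm6 and of 173 and 167 with asparaginase. In SUPB15 the levels were 66.9 and 60.8 untreated and 91.4 and 91.4 with asparaginase. The second site in SUPB15, chr7:30635358-30636062, had levels of 34.8 and 33.3 untreated and 79.9 and 73.8 with asparaginase. It was the weaker site throughout, and came nearest to the first in the treated SUPB15 libraries.

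SARS, seryl-tRNA synthetase, had the main summits farthest inside its gene, at 1039 to 1125 bases, within chr1:109756368-109758088. Its level was 77.1 and 91.1 in untreated Nalm6 and 154 and 151 with asparaginase. The SUPB15 levels were 51.2 and 41.03 untreated and 70.2 and 61.1 with asparaginase. In SUPB15 untreated replicate 2 and asparaginase replicate 2 smaller separate peaks were listed within 12 bases of the start itself, with fold enrichments of 3.63 and 4.19. A weaker region upstream of SARS, with a median summit at −5346.5 bases, was listed in 4 libraries.

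TARS, threonyl-tRNA synthetase, had its main site at chr5:33440556-33441832, with summits 288 to 322 bases inside the gene. Its level was 117 and 125 in untreated Nalm6 and 171 and 167 with asparaginase. SUPB15 gave 59.05 and 54.4 untreated and 89.5 and 83.3 with asparaginase. A small peak at −5028 bases was listed in SUPB15 asparaginase replicate 1 alone.

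NARS charges the tRNA for asparagine, the amino acid that the drug removes. Its main site, chr18:55288449-55289757, had summits at −78 to −33 bases from the start in the rule. The level of NARS was 84.8 and 93.6 in untreated Nalm6 and 155 and 159 with asparaginase. In SUPB15 it was 22.5 and 25.9 untreated, the lowest pair of the 10 genes, and 72.1 and 57.8 with asparaginase. A small peak 2605 bases inside the gene was listed in SUPB15 asparaginase replicate 1 alone.

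**Figure D2:**
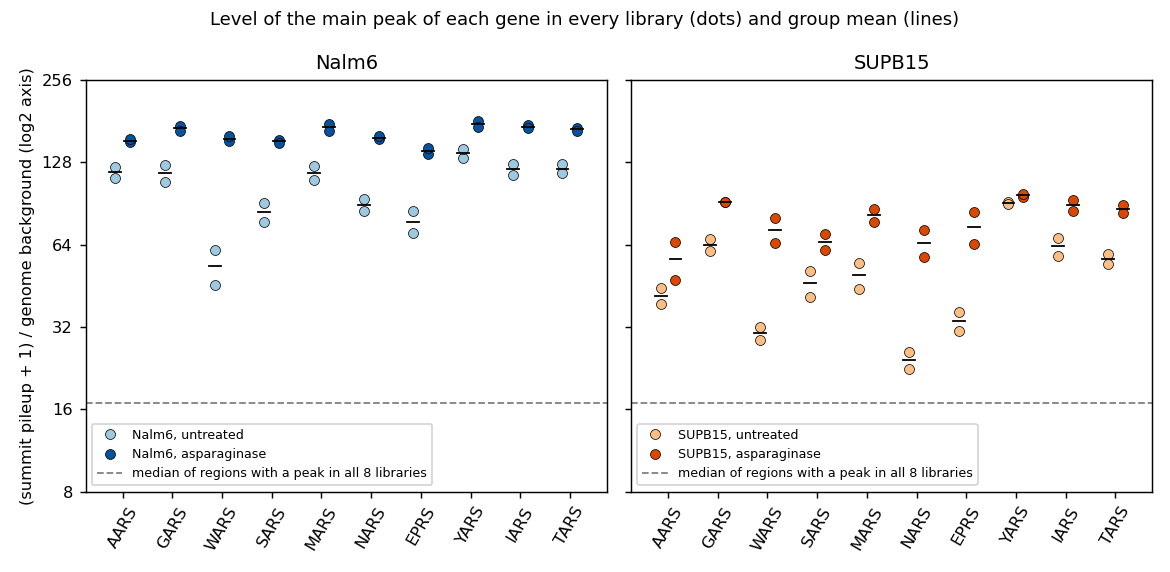
Level of the main peak of each gene in every library (y axis, summit pileup plus 1 over genome background, log2 axis), with dots for libraries and lines for the means of 2 libraries. All 10 sites lie above the dashed median of regions listed in all 8 libraries, and the genes lie closer together with asparaginase than without.

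Ordered by mean level, YARS stood first in every group. In untreated Nalm6 the order was YARS at 138 ± 7.64 (SD, n = 2), TARS, IARS, AARS, GARS, MARS, NARS, SARS, EPRS, and WARS at 53.4 ± 11.2. Of the 9 pairs of neighbours in this order, 6 overlapped between libraries, and the gaps lay below YARS, below MARS and below EPRS. With asparaginase the Nalm6 levels ran from 177 ± 6.45 (YARS) to 140.5 ± 4.59 (EPRS), and 7 of 9 neighbouring pairs overlapped.

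In untreated SUPB15 the order was YARS at 90.6 ± 0.794, GARS, IARS, TARS, MARS, SARS, AARS, EPRS, WARS, and NARS at 24.2 ± 2.38. With asparaginase it ran from YARS at 96.9 ± 1.66 to AARS at 56.6 ± 12.7, and 8 of 9 neighbouring pairs overlapped. The ratio of the highest to the lowest gene was 2.59 in untreated and 1.26 in treated Nalm6, and 3.74 in untreated and 1.71 in treated SUPB15. With asparaginase, all 10 sites had pileups of at least 300 in both Nalm6 libraries, as did 8 and 5 sites in the SUPB15 libraries, against the ceiling of 400. The part of the ceiling in this narrowing was not tested.

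**Figure D3:**
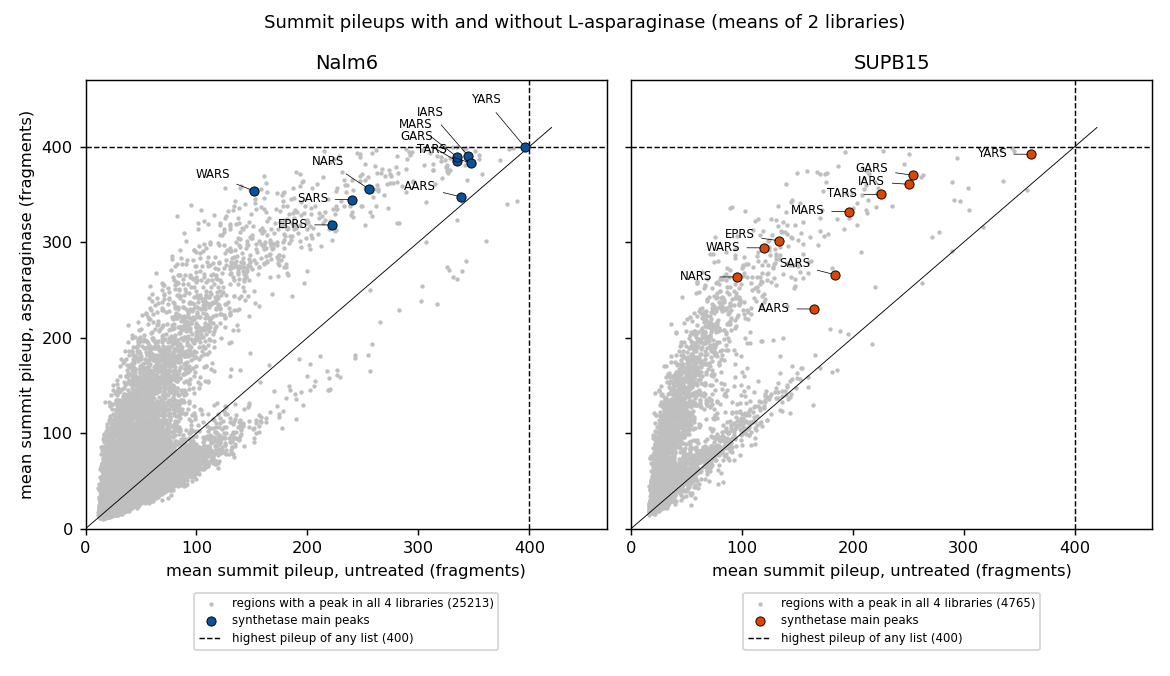
Mean summit pileup in untreated (x axis) and asparaginase-treated (y axis) libraries, in fragments, for the 10 main sites and for every region with a peak in all 4 libraries of the line (grey). The dashed lines mark the highest pileup of any list, 400, and in Nalm6 the main sites of YARS, IARS, MARS, GARS and TARS crowd against it with asparaginase.

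The comparison of asparaginase with no treatment asks how ATF4 occupancy at these sites differed after the drug. On the scale of genome background, both treated libraries lay above both untreated ones at all 10 main sites in Nalm6, as they did at 60.4% of the 25213 regions listed in all 4 Nalm6 libraries. The same held at all 10 sites in SUPB15 and at 68.1% of the 4765 regions there. The genome background that divides the pileups was 2.97 and 2.79 in untreated and 2.21 and 2.33 in treated Nalm6, and 4.08 and 3.90 in untreated and 4.19 and 3.93 in treated SUPB15. By the undivided summit pileup, 8 of the 10 sites lay apart in Nalm6 and 2, AARS and YARS, overlapped, compared with 34.5% of regions that lay apart. In SUPB15 all 10 lay apart, compared with 66.4% of regions. The uncentred log2 difference of the 10 sites had a median of 0.55 in Nalm6 and 0.56 in SUPB15. Over all regions tested the median was 0.37 in Nalm6 and 0.62 in SUPB15, so both lines moved upward on this scale. In Nalm6 the lower background of both treated libraries raises every such difference, while in SUPB15 the backgrounds overlapped. A general rise in pileup is thus not shown for Nalm6. In SUPB15 the pileups themselves were higher at 66.4% of regions, but depth in reads is unknown.

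Changes were therefore tested with limma after centring on the median change of all regions of the line. In Nalm6, 4 of the 10 main sites rose (adjusted p under 0.05 over 25213 regions), compared with 22.7% of all regions. The largest change was at WARS, with a log2 change of 1.20 (SE 0.16, adjusted p = 4.1e-11), a 2.29-fold rise beyond the general shift. SARS (0.50, adjusted p = 0.010), EPRS (0.49, adjusted p = 0.011) and NARS (0.45, adjusted p = 0.021) rose by about the same amount. No site fell, compared with 8.64% of regions. The other 6 sites did not pass the test, with log2 changes from −0.01 (YARS) to 0.19 (MARS).

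With 1 Nalm6 library left out, the lone library of its group was assumed to vary like the pair of the other group. WARS had log2 changes of 1.05 to 1.32 in the 4 cases. The calls at SARS, EPRS and NARS were lost without either asparaginase library (adjusted p from 0.34 to 0.50). The changes were of similar size in those fits, 0.43 and 0.55 at SARS, 0.47 and 0.50 at EPRS and 0.42 and 0.47 at NARS. The second WARS site also rose in Nalm6, with levels of 53.9 and 65.6 untreated and 133 and 131 with asparaginase, and a log2 change of 0.78 (SE 0.16, adjusted p = 2.1e-05). That call was lost without asparaginase replicate 1 (adjusted p = 0.13) and without replicate 2 (adjusted p = 0.065).

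In SUPB15, 3 of the 10 main sites rose relative to the median change, compared with 20.5% of 4765 regions. They were NARS (0.80, SE 0.25, adjusted p = 0.013), WARS (0.63, SE 0.22, adjusted p = 0.023) and EPRS (0.51, SE 0.21, adjusted p = 0.048). YARS fell relative to the median change (−0.52, SE 0.11, adjusted p = 0.00046), compared with 5.96% of regions that fell. Its own level was not lower in the treated libraries, and its uncentred log2 difference was 0.10 (adjusted p = 0.52). The other 6 sites did not pass the test, with log2 changes from −0.19 (AARS) to 0.12 (MARS). The second GARS site rose by 0.55 (SE 0.20, adjusted p = 0.029).

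The SUPB15 calls rested on all 4 libraries. Without untreated replicate 1 or asparaginase replicate 2, YARS was the only main site still called. Without untreated replicate 2 or asparaginase replicate 1, limma called 0 of the 10 main sites, with 3 at an unadjusted p under 0.05 in each case. Over the whole line, 1260 regions were called with all libraries. Without untreated replicate 1 there were 10, without untreated replicate 2 there were 0 (412 at an unadjusted p under 0.05), without asparaginase replicate 1 there were 674, and without asparaginase replicate 2 there were 1659. The second GARS site lost its call in each case (adjusted p from 0.091 to 0.55).

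**Figure D4:**
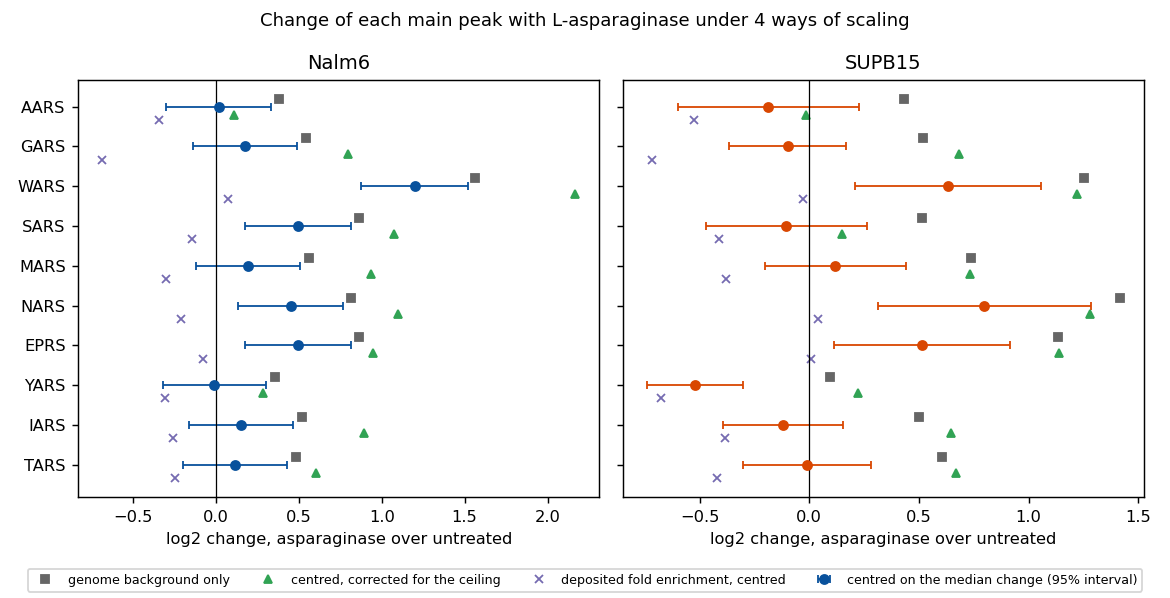
Log2 change with asparaginase at each main site (x axis), centred on the median change with its 95% interval from limma, and as point values under 3 other scalings. WARS, SARS, NARS and EPRS in Nalm6, and WARS, NARS and EPRS in SUPB15, lie above 0 with their intervals. Values from the deposited fold enrichment, centred on its own median change, lie at or below 0 at most genes.

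The direction at these genes depended on the scale. With genome background alone and no centring, 9 sites rose in Nalm6, all but YARS, compared with 38.7% of all regions. In SUPB15, 8 rose in this way, all but AARS and YARS, compared with 49% of regions. A correction for the ceiling was added after the data had been seen. With it, 7 sites rose in Nalm6 (GARS, WARS, SARS, MARS, NARS, EPRS and IARS), compared with 22.9% of regions. Among the 358 Nalm6 regions at least as strong untreated as the weakest main site, 266 rose in this way. The same correction left WARS, NARS and EPRS as calls in SUPB15, where 20.1% of regions rose. It gave YARS there a log2 change of 0.22 (limma, adjusted p = 0.66). The correction grows steeply near the ceiling, so a few fragments weigh heavily at pileups such as those of YARS. On the deposited fold enrichment, centred in the same way, no site was called higher by limma, compared with 15.2% of regions in Nalm6 and 20% in SUPB15. The median change on that scale was 0.14 in Nalm6 and 0.43 in SUPB15, and falls are relative to it. In this sense AARS, GARS and MARS fell in Nalm6, compared with 4.08% of regions. In SUPB15, 7 sites fell in this sense, all but WARS, NARS and EPRS, compared with 11.5% of regions. WARS in Nalm6 had a change of 0.07 on that scale (adjusted p = 0.76). The regions compared mattered too. A stricter set held the 1642 SUPB15 regions with a −log10 q of at least 10 in every library, whose median change was 1.09. Relative to that median, the rises at NARS, WARS and EPRS were lost and 6 sites fell. Of all regions in that set, 31.3% fell and 3.35% rose in this sense. Without centring, the lowest log2 difference of the 10 sites in SUPB15 was 0.10, so none was lower. With imputed untreated values at regions listed in both treated libraries, WARS was the only site called in Nalm6, where 24.1% of regions rose. YARS was the only one called in SUPB15, lower relative to the median change, as were 7.81% of regions.

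The local background moved with these results. At GARS it was 24.96 and 27.6 fragments in untreated Nalm6 and 42.0 and 47.5 with asparaginase, while the summit pileup went from 322 and 348 to 381 and 388. The fold enrichment there was 12.4 and 12.2 untreated and 8.88 and 8.02 with asparaginase. At WARS the local background was 18.0 and 20.4 untreated and 38.2 and 41.02 with asparaginase, with pileups of 134 and 170 and then 336 and 371. Without any centring, the fold enrichment of 7 sites was lower in both treated Nalm6 libraries than in both untreated ones, and that of WARS was higher. Over all Nalm6 regions 14.2% were lower and 44.8% higher in this way. In SUPB15 it was lower at AARS and GARS, higher at 3 sites and overlapping at 5, while 4.13% of all regions were lower and 65.2% higher. Fold enrichment falls when the local background rises by a larger factor than the pileup, as it did at GARS. The source of the higher local background was not tested.

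Strong sites were also set beside other strong regions. In Nalm6, 358 regions had an untreated level at least as high as that of the weakest main site (WARS). This cut lay at 52.8, from the mean log2 level, while the median main site stood at 116.9. The set thus reaches well below most main sites and is not matched to them in strength. Relative to the median change of all regions, 62.6% of these rose and 12.01% fell, with a median log2 change of 0.52. The median over the 10 main sites was 0.19. In SUPB15, 348 regions were at least as strong untreated as NARS (24.2, with the median main site at 47.7). Relative to the median change, 17.2% of these rose and 11.5% fell, with a median of 0.04. The median over the 10 main sites was −0.06. With the ceiling correction the medians were 1.10 for the strong regions and 0.91 for the main sites in Nalm6. In SUPB15 they were 0.54 and 0.68, so the order turned there. These corrected values rest on few fragments at sites near the ceiling, and on an origin of the ceiling that was not tested.

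The difference between the lines in the change with asparaginase was tested as an interaction over the 3812 regions listed in all 8 libraries. By limma, the change was larger in SUPB15 at 0.498% of regions and smaller at 4.93%, and 0 of the 10 main sites were called in either direction. At an unadjusted p under 0.05 stood 2 sites, SARS with a difference (SUPB15 minus Nalm6) of −0.48 in log2 (95% interval −0.93 to −0.02, adjusted p = 0.31) and YARS with −0.39 (−0.71 to −0.07, adjusted p = 0.18). Without SUPB15 asparaginase replicate 2, YARS was called. NARS had the largest difference in the other direction, 0.47 (−0.04 to 0.98, adjusted p = 0.42). A rise called in 1 line and not in the other, such as that at SARS, was thus not shown to differ between them.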

How the data were processed

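ATF4 peak lists of 8 libraries were used, grouped by cell line and treatment from the sample titles. The members and the lists of other genes were chosen with earlier results of these data known. BWA, MACS2, DiffBind and the build hg19 are named in the submitters' processing notes, without versions or options. Each deposited list holds, for 1 library, the authors' fold enrichment at the summit (a ratio of pileup to local background) together with its significance, which the authors deposited as −log10 of p and of q; the latter was used only as a filter.

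The fold, (pileup + 1) / (background + 1), and the Poisson p were solved for the whole-number summit pileup and the local background, which succeeded for 100% of peaks (tolerance 0.001 in −log10 p). Peaks that share at least 1 base were merged within a line, or over all 8 lists. A gene's strongest peak is that of highest fold enrichment; its main site is the region listed in all 8 libraries. All 10 genes were named, by rule.

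Log2 levels at regions listed in every library of a line (4) were compared with limma 3.58.1 (R 4.3.3, trend, Benjamini-Hochberg adjustment at 0.05 over all regions), centred on the median change; the lines were compared by the interaction. Alternatives were no centring, the deposited fold enrichment, a −log10 q of at least 10, imputed untreated values, a replicate block and each library left out. A correction for the ceiling, the negative of 401 × ln(1 − pileup / 401), was chosen after seeing the data. The solving step and limma were tested on simulated data. Depth in reads is unknown, so precision rests on pileups and on 2 libraries per group. Replicate numbers do not pair the libraries by the labels. Some genes of the lists of other synthetases are not reported here.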

Additional observations from a re-analysis of the deposited data

How the results depend on the processing

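All 10 genes kept a site in all 4 libraries of each line under every alternative run (windows of 1 and 10 kb, summits within 5 kb, −log10 q of at least 10, equal list lengths, summits within 200 bases, each library left out). Genes with a gained site, 0 in each line, became 1 in Nalm6 with equal list lengths (SARS) and 1 in SUPB15 within 10 kb (NARS), and 0 to 1 in Nalm6 and 0 to 4 in SUPB15 with a library left out. The highest of these SUPB15 counts came with asparaginase replicate 1, the list of 88302 peaks, as the only treated list. The share of all regions gained was counted in the main setting only, so these counts have no background beside them. Ranked by −log10 p the median place was the top 0.172%, compared with 1.19% by fold. Promoters with TGATGNAA fell from 6 to 3 when only bases before the start were searched.

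Regions changed, 7896 in Nalm6, were 4852 on the deposited fold enrichment, 4726 with −log10 q of at least 10 and 14606 with imputed untreated values. In SUPB15 1260 regions became 2338 without centring, 569 with −log10 q of at least 10 (9.67% of them higher, compared with 77.5% of the main calls) and 2682 with imputed values (22.7% higher). Regions that differed between the lines, 207, became 115 on the fold enrichment and 51 with −log10 q of at least 10. Leaving out a library gave 4782 to 6896 regions in Nalm6, 0 to 1659 in SUPB15 and 79 to 368 for the difference.

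Main sites changed were 4 in each line. Without centring they became 9 in Nalm6 and 8 in SUPB15 (38.7% and 49% of all regions rose). On the fold enrichment, 7 in SUPB15 fell relative to the median change, as did 11.5% of regions. The ceiling correction gave 7 in Nalm6 (22.9% of regions rose), and imputed values gave 1 in each line (WARS in Nalm6, YARS in SUPB15). With −log10 q of at least 10, 6 SUPB15 sites were called (AARS, GARS, SARS, YARS, IARS and TARS). All were lower relative to the median change, as were 31.3% of regions. With a library left out, the log2 change of WARS in Nalm6 was 1.05 to 1.32. That of YARS in SUPB15 was −0.72 to −0.39.

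A log2 change was counted as reversed when its sign differed and either value passed the threshold. On the fold enrichment the values were centred on its own median change. Those reversed in Nalm6 were AARS −0.34, GARS −0.69, SARS −0.15, MARS −0.30, NARS −0.21 and EPRS −0.078, with −0.34 at the second WARS site. In SUPB15 they were WARS −0.029 and MARS −0.38, with −0.051 at the second GARS site. AARS, GARS and MARS in Nalm6 and MARS in SUPB15 passed the threshold on the fold enrichment only. SARS, NARS and EPRS in Nalm6 and WARS in SUPB15 passed it on the main scale only, so their rises were lost and no fall was called. Without centring, the reversed changes were, in SUPB15, GARS 0.52, SARS 0.51, YARS 0.10, IARS 0.50 and TARS 0.61. Leaving out the centring adds the median change of all regions, 0.62, to every SUPB15 value. With centring, GARS, SARS, IARS and TARS had not passed the test. YARS became 0.22 with the ceiling correction. Apart from the shift by centring, the cause of these changes was not tested. A further 44 of 350 values changed sign where neither value passed the threshold, and these are not counted as reversed.

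With the replicate number as a block, 4 main sites were called in each line, as without it, and 2341 regions in SUPB15 and 411 for the difference. Deviations of same-numbered libraries correlated at 0.033 in Nalm6 and 0.086 in SUPB15, so the numbers were not taken to pair them. Changes at sites near the pileup ceiling are limited by it, and 2 libraries a group limit all tests.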
